A study of Mus musculus with 2 samples.

Results

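The cyclins and kinases of mitosis and meiosis, 10 genes in all, were followed through the germ cell stages of the mouse testis and compared between WT and Alkbh5 KO. They are the cyclins Ccna1, Ccna2, Ccnb1, Ccnb2 and Ccnd2, the cyclin-dependent kinase Cdk1, the Aurora kinases Aurka, Aurkb and Aurkc, and the Polo kinase Plk1. The genes were chosen by name as 10 of the 36547 genes listed in the deposited matrices, and all 10 were found in both libraries. The study asked how loss of ALKBH5, an enzyme that removes N6-methyladenosine (m6A) marks from RNA, changes the cells of the testis. Single-cell RNA libraries were made, 1 from WT and 1 from KO testis, of 12-week-old C57BL/6 mice. The KO animals were Alkbh5-/- offspring of heterozygous parents, so every cell type of the testis lacked the gene. The study speaks of 1 mouse per genotype in its introduction and of 3 in its methods, so that each library may pool animals.

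Cyclins are the regulatory subunits that switch cyclin-dependent kinases on. In body cells and dividing spermatogonia, D-type cyclins act in G1, cyclin A2 with its kinases carries cells through S phase and G2, and cyclin B1 with CDK1 starts mitosis. Male germ cells go through a long meiotic prophase and then through both meiotic divisions without an S phase in between, and they have forms of their own. Cyclin A1 is needed for the first meiotic division, and Aurora C works beside Aurora B in the chromosomal passenger complex that corrects attachments of chromosomes to the spindle. Aurora A acts at spindle poles, and PLK1 acts at centrosomes, kinetochores and the exit from prophase. The round spermatids formed by the second division do not divide again, and they mature into sperm.

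The WT library held 5756 barcodes with 80283221 UMIs (unique molecular identifiers, each standing for 1 captured RNA molecule) and the KO library 7012 barcodes with 82056760 UMIs. Per barcode the median was 10905.5 UMIs in WT and 9117.5 in KO, and 45 barcode sequences occurred in both libraries. Clusters were formed over both libraries together and named from marker genes, none of which is among the 10. They gave 1 spermatogonia-like cluster (190 WT and 1064 KO cells), 1 early spermatocyte-like cluster (35 and 121), late spermatocyte-like clusters 1 (251 and 290) and 2 (454 and 371), 2 early-stage, 1 mid-stage and 2 late-stage round spermatid-like clusters, and 4 sperm-like clusters. Leydig-like, Sertoli-like, macrophage-like and endothelial-like cells made up the rest. In the spermatogonia-like cluster 11 of 17 spermatogonia markers were detected, and in the early spermatocyte-like cluster 16 of 17 of its markers. Levels are summed UMIs of a gene per 1000000 UMIs of the cluster (CPM), with exact Poisson 95% intervals that cover counting error only. Since there was 1 library per genotype, no difference between WT and KO has a replicate check and none was tested. Of the 10 genes, 6 (Ccna1, Ccna2, Ccnb1, Ccnd2, Cdk1 and Aurka) were among the variable genes that formed the clusters, and Ccna2 was among the leading genes of the spermatogonia-like cluster. Differences between clusters are therefore descriptions.

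Alkbh5 itself was counted 607 times in the whole WT library and 5 times in the KO library, a log2 ratio of CPM of -6.96 (95% interval -8.58 to -5.72). In spermatogonia-like cells 115 UMIs were counted in WT and 1 in KO, and in the late spermatocyte-like clusters 250 and 0. The counts of the targeted gene thus go with the labels of both libraries.

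Genes of mitosis and meiosis often carry CCAAT words just before their start, bound by NF-Y, and many G2 and M phase genes carry the cell cycle homology region element, whose core reads TTTGAA. RefSeq promoter windows on GRCm38.p6, from 250 bases before to 50 after the start, were at hand for 7 of the 10 genes (not for Ccna2, Ccnd2 and Aurkb). The stretches below lie before the start and outside annotated exons. They are shown for some of the genes with high levels in late spermatocyte-like cells. Those of Ccnb1 and Plk1, which also had windows and high levels there, are not printed. The printed Aurkc stretch ends 86 bases before the start. Capitals mark CCAAT or TTTGAA on either strand (CCAAT reads ATTGG and TTTGAA reads TTCAAA on the other strand), and each line is written 5′ to 3′ along the gene.
Ccnb2: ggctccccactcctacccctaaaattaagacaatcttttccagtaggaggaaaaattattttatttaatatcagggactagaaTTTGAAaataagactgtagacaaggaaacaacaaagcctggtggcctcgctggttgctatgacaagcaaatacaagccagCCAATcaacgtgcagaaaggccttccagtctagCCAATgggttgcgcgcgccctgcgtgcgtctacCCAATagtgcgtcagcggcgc
Cdk1: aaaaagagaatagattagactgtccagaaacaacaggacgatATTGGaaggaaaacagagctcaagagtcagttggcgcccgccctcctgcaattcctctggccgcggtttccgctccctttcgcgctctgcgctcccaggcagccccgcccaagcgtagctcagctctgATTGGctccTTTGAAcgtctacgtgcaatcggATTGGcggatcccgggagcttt
Aurka: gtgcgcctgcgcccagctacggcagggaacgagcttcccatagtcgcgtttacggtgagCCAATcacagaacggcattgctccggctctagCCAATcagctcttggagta
Ccna1: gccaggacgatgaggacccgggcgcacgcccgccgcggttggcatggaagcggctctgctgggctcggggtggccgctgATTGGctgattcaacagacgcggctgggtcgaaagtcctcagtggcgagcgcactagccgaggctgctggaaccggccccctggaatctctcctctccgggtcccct
Aurkc: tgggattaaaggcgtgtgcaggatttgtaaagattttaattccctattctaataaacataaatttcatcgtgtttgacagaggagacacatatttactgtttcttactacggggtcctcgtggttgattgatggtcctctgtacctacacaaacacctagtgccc
These stretches are chr9:70421555-70421804 (minus strand) for Ccnb2, chr10:69352939-69353162 (minus) for Cdk1, chr2:172370571-172370680 (minus) for Aurka, chr3:55055056-55055241 (minus) for Ccna1 and chr7:6995135-6995299 (plus) for Aurkc. The Ccna1 stretch lies before its RefSeq start but inside the longer gene that GENCODE gives.

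In Ccnb2, CCAAT words begin 87, 54 and 21 bases before the start, and TTTGAA stands 167 bases before it and again just after it. Cdk1 holds 3 CCAAT words on the other strand, at 208, 80 and 48 bases before the start, and TTTGAA at 71 and 15 bases before it, the last of these in an exon that is not printed. Ccna1 has 1 CCAAT word in its printed stretch, on the other strand and 107 bases before the start. The printed Aurkc stretch has none, but it leaves out the bases next to the start. The Aurkc window holds a CCAAT word on the other strand at base 25 after the start. Over the whole windows, CCAAT was present in all 7 of the genes and in 37.4% of 32851 windows of all genes. At least 2 CCAAT words stood in 4 of the 7 (Aurka, Ccnb1, Ccnb2 and Cdk1) and in 11.7% of all windows. CCAAT and TTTGAA together stood in 4 of the 7 (Aurka, Ccnb2, Cdk1 and Plk1) and in 6.95% of all windows. The MYB words CAACTG or CAACGG or TAACTG or TAACGG were found in 2 of the 7 (Aurka and Cdk1) against 28.3% of all windows, and the E2F words TTTCCCGC or TTTCGCGC or TTTGCCGC or TTTGGCGC in 1 (Cdk1) against 2.26%. These matches describe letters and no binding was measured.

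Most of the 10 genes were highest in spermatogonia-like or in late spermatocyte-like cells, and some, such as Ccnb1 and Aurkb, had high levels in both. Among the germ cell classes, the highest WT level was in late spermatocyte-like cells for 7 genes and in spermatogonia-like cells for Ccna2, Ccnd2 and Aurkb. In KO, 4 genes were highest in late spermatocyte-like cells (Ccna1, Aurka, Aurkc and Plk1) and 4 in spermatogonia-like cells (the same 3 and Ccnb1). Cdk1 was highest in early spermatocyte-like cells in KO, at 185 CPM beside 158 in late spermatocyte-like cells, and Ccnb2 in early-stage round spermatid-like cells, at 344 CPM beside 333 in late spermatocyte-like cells.

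**Figure D1:**
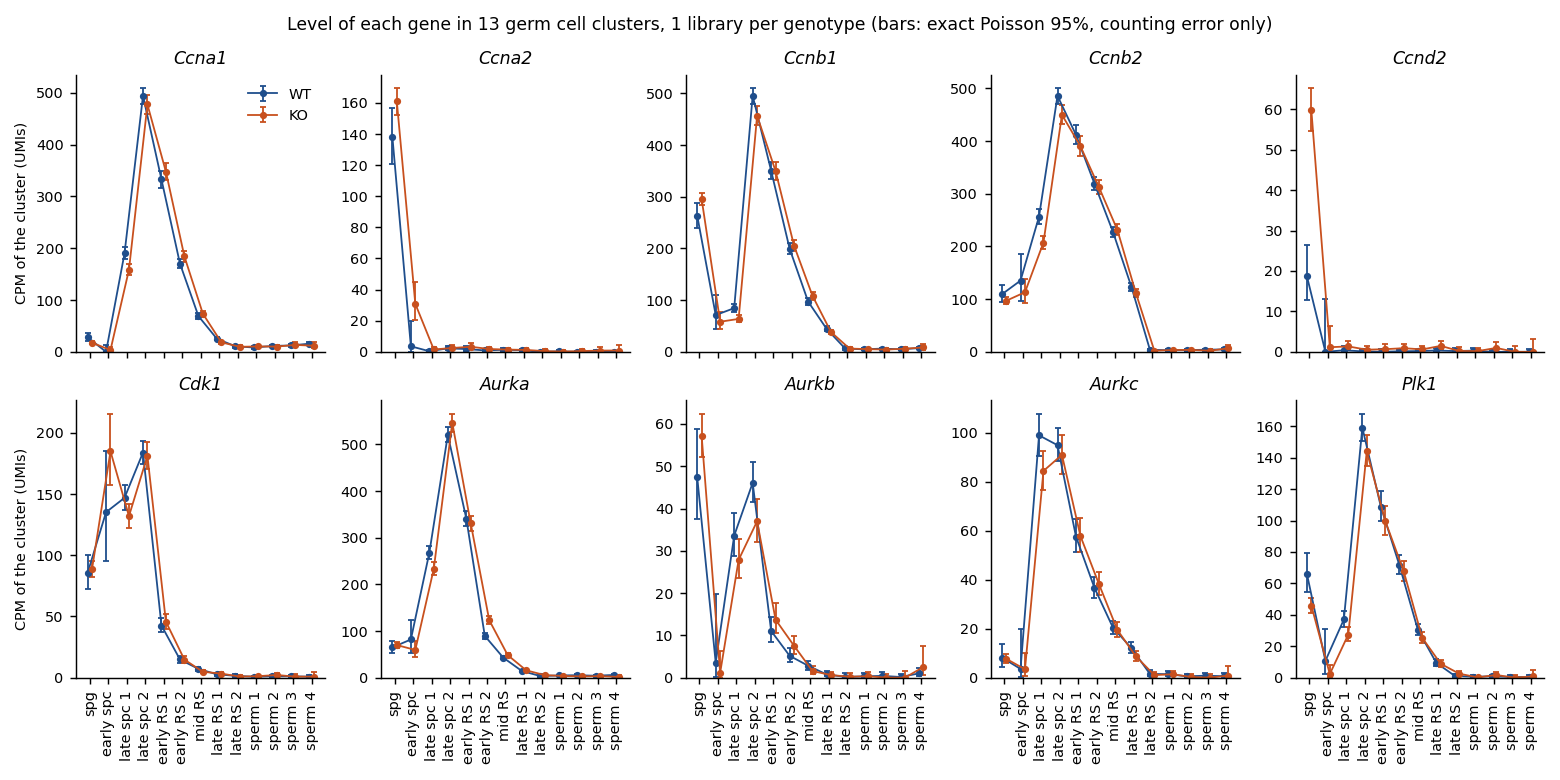
Level of each of the 10 genes (vertical axis, CPM on a linear scale that differs between panels) in the 13 germ cell clusters (horizontal axis, spg for spermatogonia-like, spc for spermatocyte-like, RS for round spermatid-like), for WT in blue and KO in orange, with bars for exact Poisson 95% intervals. The lines of both libraries run close together for most genes, and Ccna2 and Ccnd2 drop after the spermatogonia-like cluster while Ccna1, Ccnb1, Aurka and Plk1 peak in late spermatocyte-like cluster 2.

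Ccna2, the A-type cyclin of mitotic cells, stood at 138 CPM (121 to 157) in WT and 161 (152 to 170) in KO spermatogonia-like cells. Early spermatocyte-like cells had 1 UMI or 3.56 CPM in WT and 27 UMIs or 30.8 CPM in KO, and the level was between 0.382 and 2.47 CPM in both late spermatocyte-like clusters. A UMI of Ccna2 was seen in 56.3% of WT and 59.7% of KO spermatogonia-like cells, with median depths of 7770 and 6884.5 UMIs. In Leydig-like cells, with median depths of 10004 and 7872 UMIs, the share was 2.13% and 2.56%. Ccna2 was thus read in most spermatogonia-like cells, far above the share among Leydig-like cells, and was nearly absent from late spermatocyte-like cells.

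Ccna1, the meiotic A-type cyclin, ran the other way. It had no UMI in the 35 WT early spermatocyte-like cells (a count of 0 was taken at 3 counts, or 10.7 CPM) and stood at 3.43 CPM in KO. In late spermatocyte-like cluster 1 it was at 190 CPM in WT and 158 in KO, and in cluster 2 at 494 (479 to 510) and 478 (460 to 496). From there it went down through the round spermatid-like clusters in both libraries, by way of 333 and 348 CPM in the first of them, to 10.7 and 9.71 in the last. Within late spermatocyte-like cells the step from cluster 1 to cluster 2 was 2.60-fold in WT and 3.02-fold in KO. In cluster 2, 98.7% of WT and 98.4% of KO cells had a UMI of Ccna1. In spermatogonia-like cells it was 12.1% of WT and 6.58% of KO cells, close to the 12.8% and 4.95% of Leydig-like cells, and at 5000 UMIs per cell 8.42% and 4.61% against 6.38% and 2.94%. Since these shares are close to those of Leydig-like cells, Ccna1 is not read as expressed in spermatogonia-like cells.

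The exchange of the A-type cyclins can be put as the share of Ccna1 among the UMIs of both. Each UMI is 1 molecule tagged at its 3′ end, so the counts were not divided by transcript length. In late spermatocyte-like cells Ccna1 made up 99.6% (99.4 to 99.8) of WT and 99.4% (99.1 to 99.6) of KO UMIs of the pair. In spermatogonia-like cells it made up 16.9% (12.7 to 21.8, 48 of 284 UMIs) in WT and 9.90% (8.43 to 11.5) in KO. That value depends on possible doublets and depth: without cells called doublets it was 7.17% in WT and 3.98% in KO, and at 5000 UMIs per cell 10.5% and 7.76%. Doublet calls covered 13.2% of WT and 9.96% of KO spermatogonia-like cells. Over all germ cells together Ccna1 made up 96.9% in WT and 83.7% in KO, with spermatogonia-like cells at 3.30% of WT and 15.2% of KO barcodes.

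Ccnb1 and Ccnb2, the B-type cyclins that pair with CDK1, were read in both spermatogonia-like and late spermatocyte-like cells. Ccnb1 was at 263 CPM in WT and 295 in KO spermatogonia-like cells, at 71.1 and 58.2 in early spermatocyte-like cells, at 84.5 and 63.7 in late spermatocyte-like cluster 1, and at 496 and 457 in cluster 2. It thus had a high level before and after a low stretch through early spermatocyte-like cells and late spermatocyte-like cluster 1, with a step of 5.86-fold in WT and 7.17-fold in KO between the late spermatocyte-like clusters. Of the cells of cluster 1, 39.4% in WT and 34.8% in KO had a UMI of Ccnb1, and of those of cluster 2, 99.3% and 97.0%. Leydig-like cells had 10.6% and 6.75%.

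Ccnb2 had no such gap. It was at 109 CPM in WT and 97.1 in KO spermatogonia-like cells, at 135 and 113 in early spermatocyte-like cells, at 257 and 207 in late spermatocyte-like cluster 1 and at 486 and 450 in cluster 2. It stayed at 412 and 390 CPM in the first early-stage round spermatid-like cluster and was still at 123 and 112 in the first late-stage one. In the second late-stage cluster it was at 4.01 CPM in WT and 2.11 in KO, a log2 difference of -4.94 (-5.64 to -4.32) and -5.73 (-6.79 to -4.84) from the cluster before. That was the steepest step of Ccnb2 along the germ cell clusters in both libraries. By class, the KO level of Ccnb2 was 344 CPM in early-stage round spermatid-like cells and 333 in late spermatocyte-like cells, and the order turned when cells had over 1000 genes or were thinned to 5000 UMIs.

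The balance of the B-type cyclins changed along the stages in the same way in both libraries. Ccnb2 made up 29.4% (25.8 to 33.1) of WT and 24.7% (23.3 to 26.3) of KO UMIs of the pair in spermatogonia-like cells, 65.5% and 66.0% in early spermatocyte-like cells, 75.2% and 76.5% in late spermatocyte-like cluster 1, and 49.5% and 49.6% in cluster 2. It then went up through 54.0% and 52.7% in the first round spermatid-like cluster to 73.5% and 74.5% in the first late-stage one. Ccnb2 thus had the larger part of the B-type cyclin UMIs in early spermatocyte-like cells, late spermatocyte-like cluster 1 and the round spermatid-like clusters up to there, and both had about equal UMIs in late spermatocyte-like cluster 2. In the second late-stage cluster, where both were low, it had 21 UMIs to 34 of Ccnb1 in WT and 10 to 30 in KO. Pseudogenes of both cyclins are listed in the files, Ccnb1-ps with 18 UMIs in WT and 14 in KO and Ccnb2-ps with 93 and 101. How reads matching a gene and its pseudogene were counted is not stated.

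Ccnd2, a D-type cyclin of G1, was the gene with the fewest UMIs in germ cells (WT 44, KO 544), most of them in spermatogonia-like cells. It had 32 UMIs or 18.7 CPM (12.8 to 26.4) in WT and 501 UMIs or 59.9 CPM (54.7 to 65.3) in KO there. In the late spermatocyte-like clusters it was at 0.124 to 1.34 CPM. Leydig-like cells held 49.2 CPM in WT and 30.5 in KO, and KO endothelial-like cells 76.0. Ccnd2 is therefore also a gene of the somatic cells of these libraries.

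**Figure D2:**
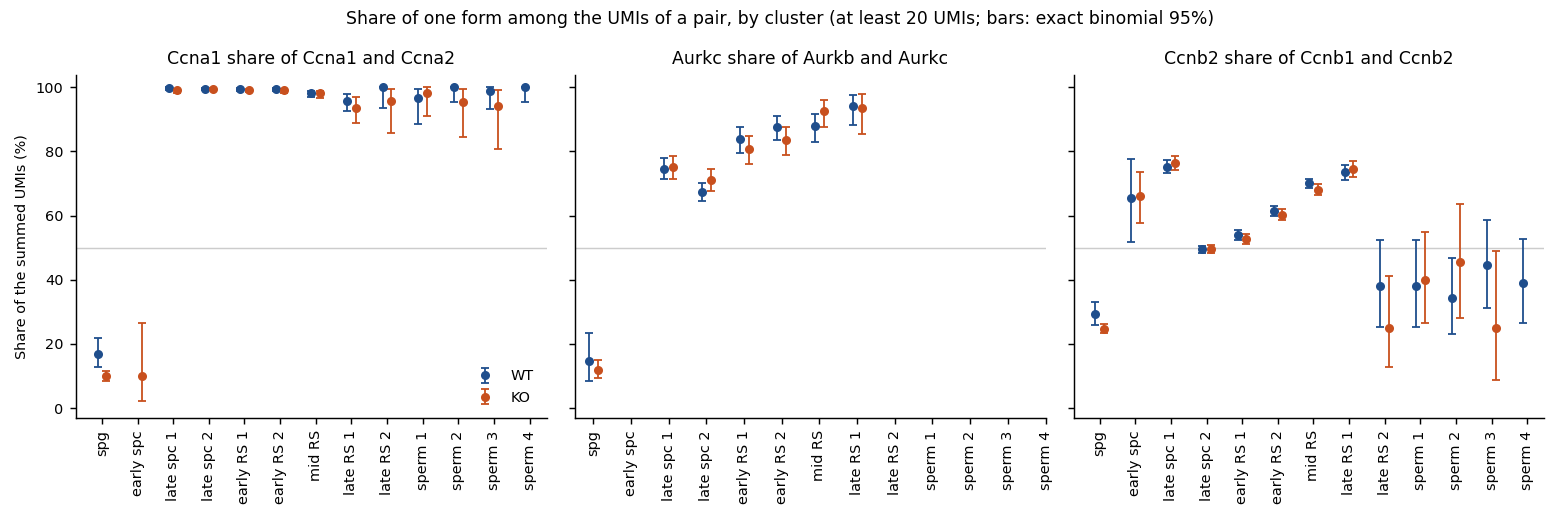
Share of Ccna1 among Ccna1 and Ccna2 UMIs, of Aurkc among Aurkb and Aurkc UMIs and of Ccnb2 among Ccnb1 and Ccnb2 UMIs (vertical axis, percent) along the germ cell clusters (horizontal axis) in WT and KO, where a pair had at least 20 UMIs, with exact Clopper-Pearson 95% intervals. The Ccna1 share goes from 16.9% in WT and 9.90% in KO spermatogonia-like cells to over 99% in late spermatocyte-like cells, and the Ccnb2 share dips to 49.5% and 49.6% in late spermatocyte-like cluster 2.

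Cdk1, the kinase that B-type cyclins switch on to start mitosis and meiosis, was high from spermatogonia-like to late spermatocyte-like cells. Its level stood at 85.4 CPM in WT and 88.5 in KO spermatogonia-like cells, at 135 (95.7 to 186) and 185 (158 to 216) in early spermatocyte-like cells, at 147 and 132 in late spermatocyte-like cluster 1, and at 184 and 181 in cluster 2. In KO, early spermatocyte-like cells and late spermatocyte-like cluster 2 differed by 0.03 on the log2 scale (-0.22 to 0.27), so that their order is within counting error. From cluster 2 to the first round spermatid-like cluster Cdk1 was 4.32-fold lower in WT and 3.96-fold lower in KO, where Ccnb2 was 1.18-fold and 1.15-fold lower and Ccnb1 1.41-fold and 1.31-fold lower. That cluster thus kept more of the B-type cyclin level than of the Cdk1 level. Both Cdk1 and Ccnb1 had a UMI in 36.3% of WT cells and 87 of 290 KO cells of late spermatocyte-like cluster 1, and in 81.1% and 72.8% of those of cluster 2.

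Aurka, the Aurora kinase of spindle poles, was at 64.9 CPM in WT and 69.9 in KO spermatogonia-like cells, at 268 and 233 in late spermatocyte-like cluster 1 and at 520 and 547 in cluster 2. It was at 341 and 331 CPM in the first early-stage round spermatid-like cluster and at 89.6 and 123 in the second. Of the Aurora kinases it had the most UMIs in late spermatocyte-like cells.

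Aurkb, the mitotic passenger complex kinase, was at 47.4 CPM in WT and 57.1 in KO spermatogonia-like cells. Early spermatocyte-like cells had 3.56 CPM in WT and 1.14 in KO, and the level was then at 33.6 and 27.8 in late spermatocyte-like cluster 1 and 46.1 and 37.0 in cluster 2. Like Ccnb1, it thus had a low point in meiotic prophase, with 1 UMI in each library. The log2 difference from spermatogonia-like cells was -3.74 (-9.06 to -1.22) in WT and -5.64 (-10.95 to -3.16) in KO, and Ccnb1 was 3.70-fold and 5.07-fold lower there. In WT the levels in spermatogonia-like cells and in late spermatocyte-like cluster 2 differed by 0.04 on the log2 scale (-0.33 to 0.39), and in KO the former was higher by 0.63 (0.39 to 0.87).

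Aurkc, the germ cell form, was at 8.19 CPM in WT and 7.65 in KO spermatogonia-like cells and at 3.56 and 3.43 in early spermatocyte-like cells. It was at 99.04 and 84.5 CPM in late spermatocyte-like cluster 1 and at 95.01 and 91.1 in cluster 2. With 1 and 3 UMIs in early spermatocyte-like cells, the log2 step to late spermatocyte-like cluster 1 was 4.80 (2.31 to 10.1) in WT and 4.62 (3.07 to 6.91) in KO. Between the late clusters the difference was within counting error, at -0.06 in WT and 0.11 (-0.08 to 0.29) in KO. In spermatogonia-like cells 5.26% of WT and 4.70% of KO cells had a UMI of Aurkc, beside 6.38% and 1.54% of Leydig-like cells, so the WT share is at background. In cluster 1 it was 65.3% and 52.1% and in cluster 2 70.5% and 65.8%.

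Aurkc made up 70.1% (68.0 to 72.2) of WT and 72.9% (70.5 to 75.3) of KO UMIs of Aurkb and Aurkc in late spermatocyte-like cells, and 14.7% (8.30 to 23.5) and 11.8% (9.21 to 14.8) in spermatogonia-like cells. Without cells called doublets the KO share in spermatogonia-like cells was 8.23%. Unlike the A-type cyclins, the 2 kinases were read together. Both had a UMI in 34.2% of WT and 25.1% of KO late spermatocyte-like cells, and 81.1% and 75.1% of the cells with Aurkb also had Aurkc, against 59.6% and 52.0% of those without Aurkb. Cells with more UMIs have more chances to show both. In round spermatid-like cells the Aurkc share went up further, from 83.9% and 80.9% in the first cluster to 94.1% and 93.4% in the first late-stage one.

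Plk1 was at 66.1 CPM in WT and 45.9 in KO spermatogonia-like cells, at 10.7 and 2.28 in early spermatocyte-like cells, at 37.0 and 27.5 in late spermatocyte-like cluster 1 and at 159 and 144 in cluster 2. Its course was that of Ccnb1, with a low point in early spermatocyte-like cells, where WT had 3 UMIs and KO 2, and a step of 4.30-fold in WT and 5.25-fold in KO between the late clusters. Across the 26 points that 13 germ cell clusters give in 2 libraries, Plk1 and Ccnb1 correlated at 0.965 (Pearson, log2 of CPM plus 1), whereas Ccna1 and Ccna2 stood at -0.04. These points share their libraries and are no independent replicates, and the values are descriptions.

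Genes whose levels followed those of the members most closely over the same 26 points were named by rule, up to 3 per member, from 9400 genes. Cdk1 was followed by Sgol2a (0.991), a protector of meiotic cohesion, and by Gpsm2 and Smc6. Plk1 was followed by Ska1 (0.966), a kinetochore protein, by Ccnb1 and by Ralgds. Aurkc was followed by Mesp1 (0.993), one of the late spermatocyte markers used to name the clusters, and by Tlcd1 and Mad2l2. Ccnb2 was followed by Klhdc2 (0.996), Usp8 and Tmem39b, Ccnb1 by Spen (0.979), Klhl8 and Prdm2, and Aurka by Flywch1 (0.988) and Slc22a21. Ccna1 was followed by Dnah6 (0.968), an axonemal dynein, and by Runx1t1 and Gm45606. Aurkb was followed by Spats2 (0.961) and Klhl21. Ccna2 and Ccnd2 had other neighbours, Calu (0.960), Ccng1 and Mdp1 for Ccna2 and Nlrp4c and the replication licensing factor Cdt1 for Ccnd2.

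A size criterion after the settings of the study kept genes detected in 25% or more of the WT or the KO cells. The natural logs of their mean counts, scaled to 10000 per cell plus 1, had to differ by 0.25 or more. It was applied to 4 germ cell comparisons of KO with WT, and none of the 10 genes passed it in these. In spermatogonia-like cells 7 of the 10 were in enough cells and 0 passed, where 0.835% of the 4190 genes in enough cells were higher in KO and 3.39% were lower. In early spermatocyte-like cells 4 were in enough cells and 0 passed, beside 4.77% of genes higher and 6.83% lower. In late spermatocyte-like cells 8 were in enough cells and 0 passed, beside 0.786% higher and 0.786% lower. Over all germ cells together 4 were in enough cells and 0 passed, beside 11.4% higher and 5.82% lower. With so few members and such shares, a count of 0 is near the background in each of these comparisons. Members read in few cells could not pass. Over all germ cells Ccna2 had a UMI in 13.9% of KO cells and Ccnd2 in 4.33%, whatever their ratios. The median log2 ratio of the members in enough cells was 0.11 in spermatogonia-like, -0.27 in early spermatocyte-like and -0.23 in late spermatocyte-like cells, beside 0.07, -0.03 and 0.01 for all genes in enough cells. Over all germ cells it was 0.03 beside 0.05.

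**Figure D3:**
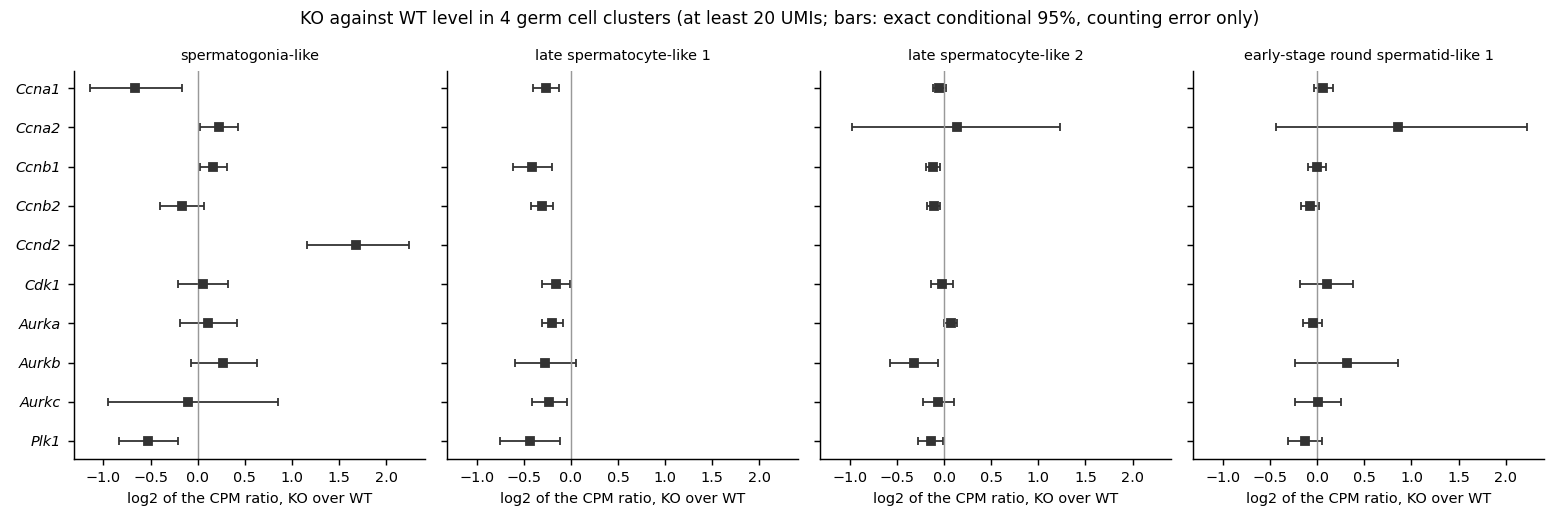
Log2 ratio of CPM, KO over WT (horizontal axis), of each of the 10 genes (vertical axis) in spermatogonia-like cells, late spermatocyte-like clusters 1 and 2 and the first early-stage round spermatid-like cluster, where a gene had at least 20 UMIs, with exact conditional 95% intervals for counting error only. Ccnd2 lies at 1.68 in spermatogonia-like cells, and all genes shown lie below 0 in late spermatocyte-like cluster 1.

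In spermatogonia-like cells the largest ratio among the members was that of Ccnd2. Its 18.7 CPM in WT and 59.9 in KO give a log2 ratio of 1.68 (1.16 to 2.24), or 3.20-fold. It missed the size criterion, with a natural log difference of 0.249 and a UMI in 6.32% of WT and 18.6% of KO cells. Thinned to 5000 UMIs per cell the log2 ratio was 0.96 (0.39 to 1.59), and without cells called doublets it was 1.87 (1.28 to 2.53). Ccna2 was higher in KO by 0.22 (0.02 to 0.43) and Ccnb1 by 0.17 (0.02 to 0.31). Plk1 was lower, at -0.53 (-0.83 to -0.21), as was Ccna1, at -0.67 (-1.15 to -0.17), whose shares of cells are close to those of Leydig-like cells and whose ratio was -0.70 (-1.53 to 0.21) without cells called doublets. The other 5 members had intervals that included 0.

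The Ccnd2 level differed between groups of cells inside the cluster. At resolution 0.8 the spermatogonia-like cells divided into a group led by Crabp1 and Cenpa, with 144 WT and 712 KO cells, and a group led by Afp and Upp1, with 14 and 206. The latter made up 7.37% of WT and 19.4% of KO spermatogonia-like cells, and the rest joined an early spermatocyte-like cluster. Zbtb16, a marker of undifferentiated spermatogonia, was at 143 CPM in WT and 79.3 in KO in the Afp-led group and at 4.45 and 12.2 in the Crabp1-led group. Ccnd2 was at 181 CPM in WT and 235 in KO in the Afp-led group, a log2 ratio of 0.37 (-0.29 to 1.12), and at 9.65 and 15.0 in the Crabp1-led group, a ratio of 0.64 (-0.21 to 1.61). Within each group the interval thus included 0.

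In the Crabp1-led group the interval left out 0 for Plk1 alone of the 10, and in the Afp-led group for Ccna2 and Ccnb1. In the former Ccna2 was at 168 CPM in WT and 191 in KO, Ccnb1 at 326 and 348, and Plk1 at 80.9 and 61.5, a log2 ratio of -0.39 (-0.71 to -0.07). In the Afp-led group Ccnb1 had 8 UMIs or 76.4 CPM in the 14 WT cells and 487 UMIs or 278 CPM in KO, a ratio of 1.86 (0.87 to 3.08). Ccna2 was at 47.8 and 127 CPM there, a ratio of 1.41 (0.17 to 3.05), and Mki67, the proliferation marker, at 9.55 and 112. The WT values of that group rest on 14 cells.

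**Figure D4:**
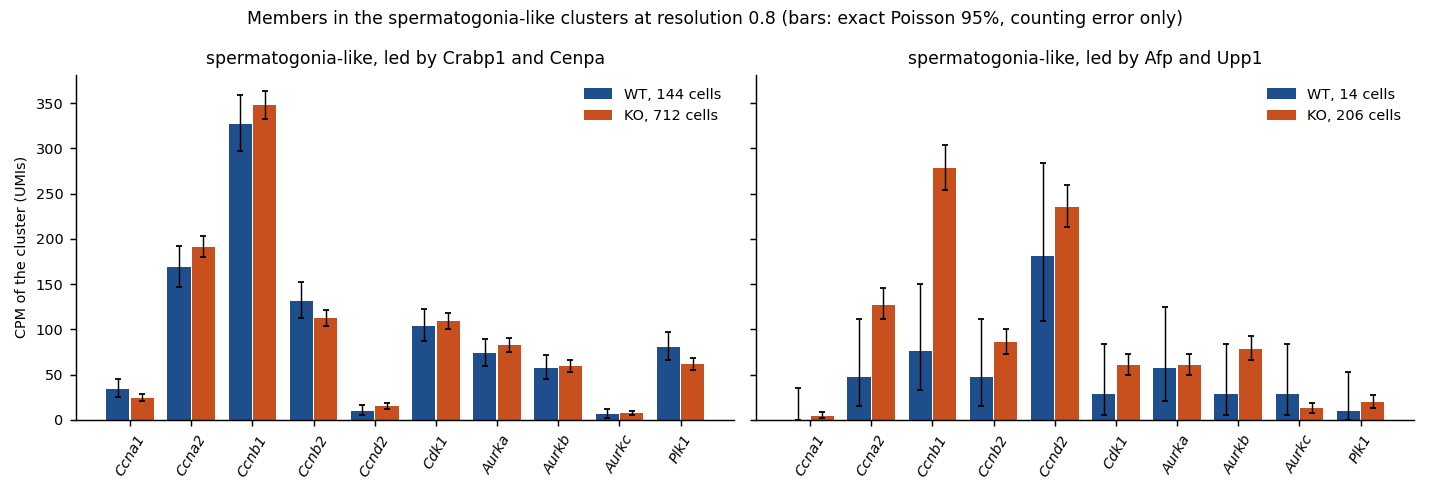
Levels of the 10 genes (bars, CPM on the vertical axis) in the Crabp1-led and the Afp-led groups of spermatogonia-like cells at resolution 0.8, in WT and KO, with exact Poisson 95% intervals. Ccnd2 is high in the Afp-led group of both libraries, at 181 CPM in WT and 235 in KO, and low in the Crabp1-led group, at 9.65 and 15.0.

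RNA of other cells also differed between the spermatogonia-like cells of the libraries. The summed level of 22 sperm markers was 32001 CPM in WT and 16691 in KO, with 2 of them higher in KO, that of the Leydig markers 25.7 and 251, with 10 of 10 higher in KO, and that of the Sertoli markers 18.7 and 109, with 10 of 11 higher. Mitochondrially encoded genes took 4.11% of WT and 5.08% of KO UMIs. Ccnd2 is also a gene of Leydig-like cells, at 49.2 CPM in WT and 30.5 in KO, and the part of these differences in the ratios above was not tested.

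In early spermatocyte-like cells the 35 WT cells set the precision. Ccna2 had 1 UMI in WT and 27 in KO, a log2 ratio of 3.12 (0.51 to 8.47), and it missed the size criterion. Ccna1 and Ccnd2 had no WT UMI, and the ratios of the other 7 had intervals that included 0. The summed spermatogonia markers in these cells were 459 CPM in WT and 739 in KO, the Leydig markers 35.6 and 331 and the Sertoli markers 10.7 and 243. The sperm markers were lower in KO, at 11589 and 6815 CPM. The part of these differences in the ratios was not tested.

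In late spermatocyte-like cells most members were a little lower in KO. Ccnb1 was at -0.31 (-0.38 to -0.25) on the log2 scale, Plk1 at -0.33 (-0.45 to -0.21), Aurkb at -0.34 (-0.53 to -0.14) and Ccnb2 at -0.25 (-0.31 to -0.18). Ccna1 was at -0.21, Aurkc at -0.14 (-0.26 to -0.01), Cdk1 at -0.10 (-0.20 to -0.01) and Aurka at -0.09 (-0.14 to -0.03). Both libraries had few UMIs of Ccna2 (20 and 22) and Ccnd2 (3 and 10). The libraries differed in how these cells fell into the 2 clusters, 251 to 454 in WT and 290 to 371 in KO, and Ccnb1, Plk1, Aurkb, Ccnb2, Ccna1, Cdk1 and Aurka were higher in cluster 2 than in cluster 1 in both libraries.

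Inside the clusters most of these ratios were smaller in cluster 2. In cluster 1 Ccnb1 was at -0.41 (-0.62 to -0.20), Plk1 at -0.43 (-0.75 to -0.11), Ccnb2 at -0.31 (-0.42 to -0.19), Ccna1 at -0.26 (-0.40 to -0.13), Aurkc at -0.23 (-0.42 to -0.04) and Aurka at -0.20 (-0.31 to -0.09), Cdk1 was at -0.15 (-0.31 to -0.0048), and the interval of Aurkb included 0. In cluster 2 Ccnb1 was at -0.12 (-0.19 to -0.05), Ccnb2 at -0.11 (-0.18 to -0.04), Plk1 at -0.14 (-0.27 to -0.02) and Aurkb at -0.32 (-0.57 to -0.07), while the intervals of Ccna1, Aurkc and Cdk1 included 0 and Aurka was higher in KO, at 0.07 (0.0035 to 0.14). All of these ratios except that of Aurkb were nearer to 0 in cluster 2 than in cluster 1. The summed sperm markers in late spermatocyte-like cells were 3751 CPM in WT and 1843 in KO, the Leydig markers 9.10 and 234, and the early spermatocyte markers 2384 and 3343, and mitochondrially encoded genes took 1.26% and 1.97% of UMIs. Their part in these ratios was not tested.

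In round spermatid-like cells, ratios whose intervals left out 0 went both ways, and there were none among the members in the first early-stage and the second late-stage cluster. Whether these clusters include cells still in the meiotic divisions was not tested. In the second early-stage cluster, Aurka had 693 UMIs or 89.6 CPM in WT and 818 UMIs or 123 CPM in KO, a log2 ratio of 0.46 (0.31 to 0.61), and Ccna1 was at 0.11 (0.00023 to 0.23). In the mid-stage cluster Ccnb1 was higher in KO, at 0.15 (0.02 to 0.28), while Cdk1 (76 and 40 UMIs) was at -0.58 (-1.17 to -0.01) and Plk1 at -0.27 (-0.53 to -0.02). Cdk1 was at 7.16 CPM in WT and 4.79 in KO there, beside 4.82 and 9.93 in Leydig-like cells. Doublet calls covered 15.9% of WT and 11.3% of KO cells of that cluster, and their part in its ratios was not tested. In the first late-stage cluster Ccna1 was lower, at -0.46 (-0.76 to -0.15), as were Ccnb1 at -0.22 (-0.44 to -0.0040), Ccnb2 at -0.14 (-0.27 to -0.02) and Aurkc at -0.47 (-0.92 to -0.03). Ccnd2 had 3 UMIs in WT and 12 in KO there.

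Over all germ cells together, Ccnd2 was higher in KO by 3.87 (3.43 to 4.35) on the log2 scale and Ccna2 by 2.52 (2.34 to 2.71). Aurkb was higher by 0.58 (0.44 to 0.71), Cdk1 by 0.31 (0.23 to 0.38) and Ccnb1 by 0.23 (0.19 to 0.28), and the other 5 were between -0.07 and 0.08. With each cluster given the same weight, Ccna2 was at 0.46 and Ccnd2 at 1.74, while Ccnb1 and Aurkb were both at -0.03. Spermatogonia-like cells, where Ccnd2 and Ccna2 are highest among germ cells, were 3.30% of WT and 15.2% of KO barcodes. Whether fewer late germ cells or more spermatogonia were present in the tissue cannot be told apart from shares of barcodes.

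Cdk1 had a further place outside the germ cells. In Sertoli-like cells, the supporting cells of the tubule that stop dividing before adulthood, it had 25 UMIs in 12 of 48 WT cells and 516 UMIs in 276 of 468 KO cells (58.97%). Its level was 54.3 CPM (35.1 to 80.2) in WT and 111 (102 to 121) in KO, a log2 ratio of 1.03 (0.45 to 1.67), and 4.82 and 9.93 CPM in Leydig-like cells. A UMI of Cdk1 was in 5.32% of WT and 7.09% of KO Leydig-like cells, and the median depths of Sertoli-like cells were 8326.5 and 9147 UMIs. At 5000 UMIs per cell the shares were 16.7% and 42.05% in Sertoli-like and 2.13% and 3.29% in Leydig-like cells. Cdk1 was thus above the Leydig-like share in the Sertoli-like cells of both libraries. The other members were lower than Cdk1 there. Ccna2 was at 0 and 1.72 CPM, Aurkb at 0 and 1.50 and the proliferation marker Mki67 at 0 and 3.44. Ccnb2 was at 30.4 and 14.8, Ccna1 at 23.9 and 12.7, Aurka at 21.7 and 10.3 and Ccnb1 at 15.2 and 15.0. Top2a, another proliferation gene, was at 19.5 CPM in WT and 12.7 in KO. In the 48 WT cells a count of 0 was taken at 3 counts, or 6.52 CPM, and its exact Poisson interval reaches 8.01 CPM. By the size criterion, applied to Sertoli-like cells after their values were seen, Cdk1 was the 1 member in enough cells and passed it as higher in KO, with a natural log difference of 0.340. Of the 5020 genes in enough of these cells 36.9% were higher in KO and 18.4% were lower, so that a large share of all genes passed it as Cdk1 did. The other somatic classes were not put to the criterion. Of the KO Sertoli-like cells with Cdk1, 1.09% had Ccna2, 10.1% Ccnb1 and 12.0% Top2a, against 2.08%, 6.25% and 6.77% of those without it. In WT, Top2a was in 33.3% of the 12 cells with Cdk1 and in 8.33% of those without.

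The Sertoli-like cells of the libraries differed in other ways as well. None of the 48 WT cells and 8.12% of the KO cells were called doublets, and without those the log2 ratio of Cdk1 was 1.05 (0.47 to 1.69), an alternative chosen after seeing the data. The Sertoli markers Wt1 and Sox9 were at 71.7 and 63.0 CPM in WT and 124 and 157 in KO, and the sperm gene Prm1 at 83559 and 15969. Mitochondrially encoded genes took 8.04% and 12.4% of UMIs. The part of these in the Cdk1 ratio was not tested. The 26 WT and 81 KO macrophage-like cells held RNA of several members, and 6.17% of the KO cells were called doublets. Ccnb2 was at 92.2 CPM (30 UMIs) in WT and 135 (108 UMIs) in KO, and Ccna1 at 55.3 (18 UMIs) and 59.9 (48 UMIs). Whether this RNA came from germ cells was not tested.

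**Figure D5:**
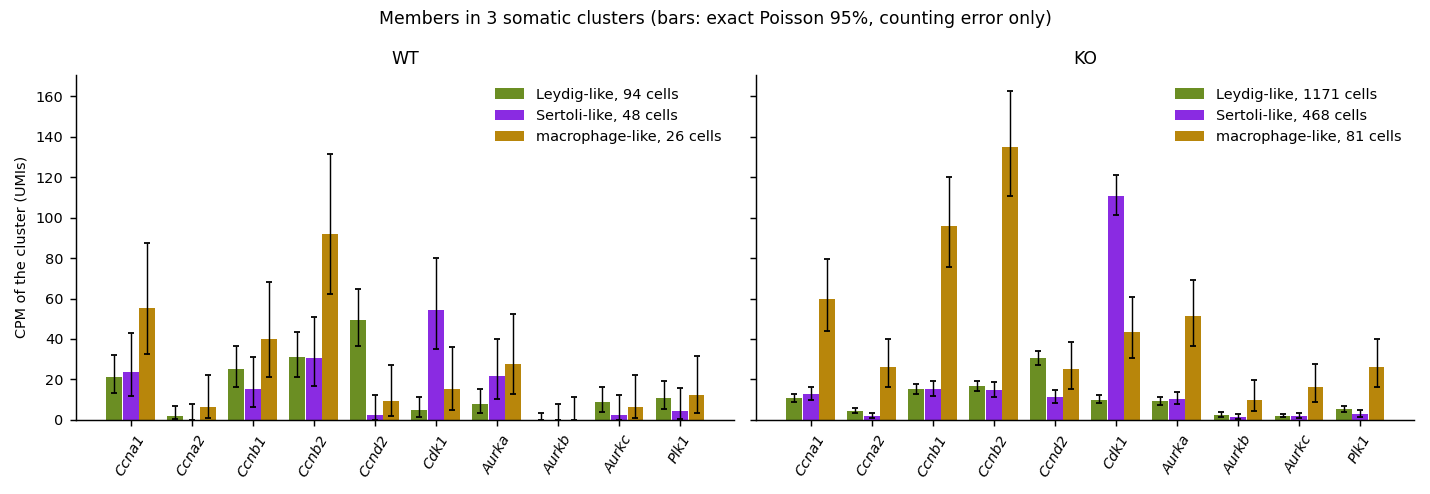
Levels of the 10 genes (bars, CPM on the vertical axis) in Leydig-like, Sertoli-like and macrophage-like cells of WT and KO, with exact Poisson 95% intervals. Cdk1 stands out in Sertoli-like cells at 54.3 CPM in WT and 111 in KO, beside 4.82 and 9.93 in Leydig-like cells.

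The wider cell division genes were counted in 5 lists with 88 genes, of which 86 were found in the files by the listed symbol. A listed gene held under another symbol, such as Sgol2a for the listed Sgo2a, may have been left out of the counts and medians. Of 81 genes with at least 100 germ cell UMIs in both libraries, 66 had their highest germ cell class in common. In WT, 27 were highest in spermatogonia-like, 28 in early spermatocyte-like and 19 in late spermatocyte-like cells, and in KO 30, 28 and 12 of the same genes. Several examples below were chosen after their values were seen. Ccnb3, a cyclin of meiotic prophase, stood at 277 CPM in WT and 363 in KO in early spermatocyte-like cells, where Bub1, a spindle checkpoint kinase, was at 591 and 739. Hspa2, a chaperone that CDK1 needs for meiosis, was at 739 and 827 CPM in late spermatocyte-like cells and the securin Pttg1 at 499 and 449. Hspa2 and Mybl1, another listed gene, were also late spermatocyte markers used to name the clusters. Ccnd1 was at 198 and 184 CPM in spermatogonia-like cells, and Cdc25c, the phosphatase that activates CDK1, at 48.5 and 51.9 in early-stage round spermatid-like cells.

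By the size criterion, no gene of the 5 lists passed in spermatogonia-like or late spermatocyte-like cells in either direction, with the background shares given above. The lists held 11 other cyclins and CDKs, 6 CDK phosphatases, kinases and inhibitors, 13 Aurora and Polo partners with checkpoint genes, 14 genes of the anaphase-promoting complex, its regulators and separase and 14 proliferation and transcription factor genes in enough spermatogonia-like cells, with median log2 ratios of 0.23, 0.21, 0.09, 0.11 and 0.21. In late spermatocyte-like cells 8, 6, 12, 12 and 8 were in enough cells, with medians of 0.11, -0.09, 0.02, 0.01 and -0.01. In early spermatocyte-like cells 10, 3, 11, 14 and 13 were in enough cells, with medians of -0.03, -0.15, 0.08, 0.18 and 0.20. Cks2 at -0.26, Anapc5 at -0.67 and Anapc11 at -0.53 passed as lower in KO there. Tpx2 at 0.83, Ttk at 1.92, Mki67 at 1.44 and Top2a at 0.64 passed as higher. Among all genes in enough cells 6.83% were lower and 4.77% higher. The values given are log2 ratios of summed CPM, whereas the criterion compares means of scaled counts per cell. The 2 measures can differ, as for Cks2, whose log2 ratio is small. The part of the marker differences of these cells, given above, in these ratios was not tested. Over all germ cells, 7 genes were higher in KO and none lower, beside 11.4% of all genes higher and 5.82% lower. These were Ccnh (1.18) and Cks2 (0.60) of 7 other cyclins and CDKs in enough cells, Arpp19 (0.73) of 4 CDK phosphatases, kinases and inhibitors, Tpx2 (0.79), Cdca8 (0.57) and Bub1 (0.59) of 8 Aurora and Polo partners, 0 of 10 genes of the anaphase-promoting complex list, and Top2a (1.08) of 4 proliferation genes. The medians of the lists there were 0.46, 0.15, 0.40, 0.25 and 0.41, beside 0.05 for all genes. Spermatogonia-like cells were 3.30% of WT and 15.2% of KO barcodes, and the part of this in the pooled ratios was not tested. With equal weight per germ cell cluster, 65 of 4450 genes in enough cells were higher in KO and 17 lower, beside 526 and 268 of 4602 without it.

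On GRCm38, Ccna1 lies at chr3:55045469-55055501, Ccna2 at chr3:36564865-36572150, Ccnb1 at chr13:100778650-100786570, Ccnb2 at chr9:70407692-70421547, Ccnd2 at chr6:127125162-127152193, Cdk1 at chr10:69335146-69352938 and Aurka at chr2:172356190-172370535, all on the minus strand. Aurkb lies at chr11:69045647-69051664, Aurkc at chr7:6995300-7003091 and Plk1 at chr7:122159439-122169873, on the plus strand. The levels are sums over the whole gene. Genes on the opposite strand overlap Ccna1 (4931419H13Rik), Ccna2 (Exosc9), Ccnd2 (Gm43126 and 9330179D12Rik) and Plk1 (Gm44985), and whether counting used the strand is not given in the sources used here, so reads of these pairs may be mixed.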

How the data were processed

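Single-cell RNA was measured with the GEXSCOPE kit in 1 WT and 1 KO testis library. The authors deposited UMI counts per gene and barcode, without normalization. The submitters' notes name FastQC 0.11.7, fastp 1, STAR 2.5.3a, featureCounts 1.6.2 and Seurat. The build given in the methods is the human GRCh38, although the symbols are those of the mouse, and which barcodes entered the tables is not stated. A gene listed for 1 library only was taken as 0 in the other. Positions came from GENCODE vM21 and promoter windows from RefSeq, both on GRCm38.

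Cells with over 500 genes, which were all of them, were integrated with Seurat 5.3.0 (R 4.3.3, Matrix 1.6.5), using 2000 variable features, 20 anchor dimensions, 30 principal components, resolution 0.3 and seed 1. A cluster was named where 3 or more markers of a type were detected in 10% or more of its cells and were 2-fold above the other cells. The order genes of the round spermatid-like clusters and details of the naming were chosen after the clusters had been seen. Python 3.11.15 was used for sums and intervals (pandas 2.3.3, numpy 2.4.6, scipy 1.17.1). Scrublet from scanpy 1.11.5, with the doublet rate set to 0.06, marked 243 WT (4.22%) and 348 KO barcodes (4.96%) as doublets, which were kept.

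Shares have exact Clopper-Pearson intervals, summed UMIs exact Poisson intervals and log2 ratios the exact conditional interval of 2 Poisson sums, all at 95% and for counting error only. A sum of 0 was taken at 3 counts. No test was made between the genotypes. The size criterion was tested on simulated data. For thinning, cells were drawn down to 5000 UMIs, which left 5756 WT and 6771 KO cells. Other alternatives were cells with over 1000 genes, resolution 0.8, no integration, cell division genes left out of the clustering features, doublets removed, totals that left out mitochondrially encoded genes and ribosomal protein genes, detection in 10% of cells, a CPM ratio of at least 2, and equal weight per germ cell cluster. Chosen after seeing the data were the removal of barcodes found in both libraries, the Cdk1 comparison and the size criterion in Sertoli-like cells and the levels without doublets.

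The genes and lists were chosen with earlier results of these data known. Genes named in the text are the 10 genes, Alkbh5, markers, for each of the 10 the 3 genes with the highest Pearson correlation of log2 of CPM plus 1 (among genes detected in 25% or more of the cells of a germ cell cluster and with 100 or more germ cell UMIs), and the 3 list genes with the largest log2 ratio among those past the size criterion. Of these correlated genes, 1 each for Aurka, Aurkb and Ccnd2 is not reported here. Other named list genes were chosen after their values were seen.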

Additional observations from a re-analysis of the deposited data

Results flagged for a closer look

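Ccnb1 pointed in opposite directions in 2 germ cell classes. Its log2 ratio of CPM, KO over WT, was 0.17 (0.02 to 0.31) in spermatogonia-like cells and -0.31 (-0.38 to -0.25) in late spermatocyte-like cells. Inside the former it was 0.09 (-0.06 to 0.24) in the Crabp1-led group and 1.86 (0.87 to 3.08) in the Afp-led group, with 8 WT UMIs. Inside the latter it was -0.41 in cluster 1 and -0.12 in cluster 2. With 1 library per genotype the difference between the classes was not tested.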

How the results depend on the processing

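None of the 10 genes passed the size criterion in the 4 germ cell comparisons under the alternatives run for it. The share of cells and the measure of size were loosened 1 at a time. Genes read in few cells, such as Ccna2 and Ccnd2 over all germ cells, thus had little room to pass. For them the repeated count of 0 is no sign of stable levels. Shares in spermatogonia-like cells moved under 2 alternatives. Without cells called doublets the Ccna1 share was 7.17% in WT and 3.98% in KO and the Aurkc share in KO was 8.23%. At 5000 UMIs per cell the Ccna1 share was 10.5% in WT and 7.76% in KO. With equal weight per germ cell cluster, 3 pooled log2 ratios changed sign, Ccnb1 to -0.027, Aurka to -0.0023 and Aurkb to -0.028. The cause of these shifts was not tested. Under thinning, 8 of 35 log2 ratios left the interval of the reported value, Ccnd2 in spermatogonia-like cells among them at 0.96. Of 38 ratios, 38 stayed inside it with cell division genes left out of clustering, with doublets removed, at resolution 0.8 and with over 1000 genes, as did 37 of 37 without integration. Ratios against a sum of 0 UMIs gave no value. Without the 45 barcodes found in both libraries, the 29 ratios with at least 100 UMIs moved by at most 0.026. The class with the highest level changed for Cdk1 in KO at resolution 0.8 and in WT without integration, and for Ccnb2 in KO with over 1000 genes and under thinning. No paired analysis was possible because there was 1 library per genotype. Among the germ cell classes, early spermatocyte-like cells had the fewest WT cells, 35.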
